A study of Mus musculus with 10 samples.

Results

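The comparison set the places occupied by Gtf3c1, the largest subunit of the transcription factor TFIIIC, against those of Rpc155, the largest RNA polymerase III subunit, in mouse neurons that received no stimulus. Both proteins were mapped by chromatin immunoprecipitation followed by sequencing in primary cortical neurons of C57BL/6J mice at DIV6, meaning 6 days in culture, which had spent the night before in 3% serum and were cross-linked with 1% formaldehyde. The members were all regions on chromosomes 1 to 19 of the untreated lists: 66174 Gtf3c1 regions and 12511 Rpc155 regions, 78685 of the 651012 regions in the 8 lists of the study. The other 6 lists held H3K4me1 and H3K27ac, marks of enhancers and of active regulatory DNA, in the same untreated cultures, and all 4 antibodies after 45 min in 50 mM KCl, which depolarizes neurons. A region was counted as occupied by both when it shared 1 bp or more with a region of the other list, and otherwise as Gtf3c1 alone or Rpc155 alone.

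RNA polymerase III makes short noncoding RNAs, among them the tRNAs, 5S rRNA, 7SL RNA and the Y RNAs. At tRNA genes TFIIIC binds the A box and the B box inside the gene and brings in TFIIIB, which recruits the polymerase; genes such as Rn7sk, Rmrp and Rny1 instead have promoters upstream, bound by SNAPc, and are not known to need TFIIIC. TFIIIC also sits at many places without the polymerase, called extra TFIIIC sites, and at such sites in other cells it has been linked to chromosome architecture.

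Each antibody has 1 list. The study design states 3 biological replicates. Whether these were pooled before the calling is not stated in the sources used here. No difference below therefore has a replicate check, no p-value is given, and the 95% exact binomial intervals cover counting error over regions only. Fold enrichment, the ratio of the signal at a region's highest point (its summit) to the local background, and q are the authors' values. The depth behind each list is unknown, since no counts come with the regions. Of 8 marker genes of glutamatergic neurons, the main cells of such cultures, all 8 had an H3K27ac region within 5 kb of a gene end, as did 6 of 6 pan-neuronal and 6 of 6 GABAergic markers. The same held for 4 of 6 astrocyte, 2 of 5 oligodendrocyte, 1 of 6 microglial, 1 of 6 endothelial and 0 of 6 non-neural markers, against 61.4% of all protein-coding genes.

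The following promoters show DNA from each class. RefSeq promoter windows on GRCm38 run from 250 bases before to 50 bases after a gene's start and are printed 5′ to 3′ on the gene's strand. For both proteins, Polg, the mitochondrial DNA polymerase gene (chr7:79466224-79466523, minus strand), held the tRNA gene n-TRtcg5, and Polr3e, itself a gene of an RNA polymerase III subunit (chr7:120917528-120917827, plus strand), held most of n-TLaag4; the capitals mark the tRNA gene. Itprip (chr19:47919274-47919573, minus strand) had the strongest Gtf3c1 region of the list. Phrf1 (chr7:141228538-141228837, plus strand) was occupied by Gtf3c1 alone. Bc1, the gene of a neuronal RNA made by RNA polymerase III (chr7:144914220-144914519, plus strand), and Rapgef1 (chr2:29619470-29619769, plus strand) were occupied by Rpc155 alone. In these last 4 windows the capitals mark 21 bases around a summit, that of Gtf3c1 at Itprip and Phrf1 and that of Rpc155 at Bc1 and Rapgef1.
Polg: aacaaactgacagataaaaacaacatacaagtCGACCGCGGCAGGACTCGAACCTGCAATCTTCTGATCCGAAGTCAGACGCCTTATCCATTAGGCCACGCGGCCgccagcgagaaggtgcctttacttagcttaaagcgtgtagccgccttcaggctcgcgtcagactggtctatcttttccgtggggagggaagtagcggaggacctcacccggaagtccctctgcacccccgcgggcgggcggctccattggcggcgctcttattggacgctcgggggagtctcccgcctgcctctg
Polr3e: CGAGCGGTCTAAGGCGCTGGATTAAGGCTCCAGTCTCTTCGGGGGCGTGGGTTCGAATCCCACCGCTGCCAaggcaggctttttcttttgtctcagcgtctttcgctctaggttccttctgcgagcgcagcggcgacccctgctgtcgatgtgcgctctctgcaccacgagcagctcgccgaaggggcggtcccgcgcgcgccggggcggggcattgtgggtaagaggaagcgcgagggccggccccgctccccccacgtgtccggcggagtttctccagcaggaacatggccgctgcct
Itprip: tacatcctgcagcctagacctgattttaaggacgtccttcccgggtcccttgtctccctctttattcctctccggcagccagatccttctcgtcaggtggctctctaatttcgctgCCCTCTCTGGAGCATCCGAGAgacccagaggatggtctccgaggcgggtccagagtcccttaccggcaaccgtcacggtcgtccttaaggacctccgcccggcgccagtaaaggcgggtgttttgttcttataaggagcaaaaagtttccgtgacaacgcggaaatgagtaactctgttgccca
Phrf1: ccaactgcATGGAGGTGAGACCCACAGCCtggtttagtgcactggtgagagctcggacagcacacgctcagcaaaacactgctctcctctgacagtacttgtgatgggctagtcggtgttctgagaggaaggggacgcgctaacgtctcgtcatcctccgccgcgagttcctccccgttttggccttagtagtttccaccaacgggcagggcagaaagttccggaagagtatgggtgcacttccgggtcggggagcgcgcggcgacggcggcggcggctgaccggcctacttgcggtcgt
Bc1: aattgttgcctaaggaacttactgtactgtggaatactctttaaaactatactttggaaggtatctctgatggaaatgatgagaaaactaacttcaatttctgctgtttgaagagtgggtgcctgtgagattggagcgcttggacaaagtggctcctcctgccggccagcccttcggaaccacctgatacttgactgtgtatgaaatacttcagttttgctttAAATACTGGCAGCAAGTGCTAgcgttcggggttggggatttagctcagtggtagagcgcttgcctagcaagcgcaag
Rapgef1: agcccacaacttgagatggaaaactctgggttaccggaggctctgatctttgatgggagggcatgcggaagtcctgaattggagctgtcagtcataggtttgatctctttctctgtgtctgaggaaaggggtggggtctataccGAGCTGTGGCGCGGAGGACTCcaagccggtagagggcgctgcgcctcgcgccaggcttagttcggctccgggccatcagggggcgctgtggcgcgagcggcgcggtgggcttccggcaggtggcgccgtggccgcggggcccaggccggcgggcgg

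At Polg the fold enrichment was 50.8 for Rpc155 and 16.3 for Gtf3c1, and both summits lay in or within a few bases of the tRNA gene. At Polr3e it was 25.6 and 6.27, with the Rpc155 summit inside the tRNA gene and the Gtf3c1 summit downstream of the window. The order was the other way at Itprip, where Gtf3c1 reached 46.7 and Rpc155 5.26. The Gtf3c1 summit lay 124 bp upstream of the start, and the summits were 19 bp apart. Phrf1 had a Gtf3c1 fold enrichment of 25.6, Bc1 an Rpc155 fold enrichment of 17.5 and Rapgef1 one of 7.47. A search for the B box, read as GGTTCGA, any 2 bases and CC, on both strands found it in the capitals of Polg, from base 44 on the opposite strand, and of Polr3e, from base 50, and in none of the other 4 windows. The Bc1 window ends 50 bases into the gene.

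Most Rpc155 regions had Gtf3c1 on them, and most Gtf3c1 regions had no Rpc155. Of the Rpc155 regions, 9542 (76.3%, interval 75.5 to 77.0) overlapped a Gtf3c1 region and 2969 (23.7%) did not. Of the Gtf3c1 regions, 9506 (14.4%, interval 14.1 to 14.6) overlapped an Rpc155 region and 56668 (85.6%) did not. The Gtf3c1 list was the longer by far, and with the strongest 12511 regions of it the shares came to 40.1% of Rpc155 and 38.6% of Gtf3c1 regions. The match was mostly one to one: 9261 of the 9542 Rpc155 regions met a single Gtf3c1 region. Across the 19 chromosomes the Rpc155 share ran from 73.0% on chromosome 10 to 80.8% on chromosome 16. At the edge of the rule, 511 Rpc155 regions (5.36%) shared 100 bp or less with Gtf3c1, and 353 of those alone (11.9%) had a Gtf3c1 region 100 bp away or less.

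Overlap followed strength in both lists. The share of Gtf3c1 regions with Rpc155 was 3.36% at a fold enrichment under 3, 7.32% from 3 to 4, 19.9% from 4 to 6, 38.5% from 6 to 10 and 68.2% at 10 or more. The share of Rpc155 regions with Gtf3c1 was 61.4%, 73.4%, 89.8%, 89.1% and 93.5% in the same steps. Gtf3c1 regions with Rpc155 had a median fold enrichment of 5.13 against 3.58 alone, and Rpc155 regions with Gtf3c1 had 3.57 against 3.23 alone. Width followed the same order. Gtf3c1 regions with Rpc155 had a median width of 623 bp (quartiles 424 and 949), 1.89 times that of Gtf3c1 alone at 329 bp (250 and 475). Rpc155 regions had 444 bp (325 and 640) with Gtf3c1 and 344 bp (285 and 438) alone, a ratio of 1.29. A wider region meets others more readily by construction: the shares rose from 2.99% to 37.4% between the narrowest and the widest of 5 equal groups of Gtf3c1 regions, and from 64.3% to 92.8% for Rpc155.

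The summits of overlapping regions lay close together, and closer at tRNA genes and at other strong Rpc155 regions than in the rest. Regions that share a base have summits near each other in part by that rule, which also keeps regions alone further from the other list. Over the 9542 Rpc155 regions and the nearest summit among their Gtf3c1 partners, the median distance was 131 bp (interval 126 to 137), with 26.7% within 50 bp and 88.5% within 500 bp. At tRNA genes, 147 pairs, it was 25 bp (21 to 30), with 82.3% within 50 bp. In the 102 pairs elsewhere with an Rpc155 fold enrichment of 10 or more it was 18 bp (12 to 21), and in all pairs under 10 it was 137 bp (132 to 143). By width the medians ran from 109 bp (102 to 117) in the narrowest of 5 such groups of Rpc155 regions through 134, 135 and 151 bp to 141 bp (125 to 153) in the widest. The Rpc155 summit fell inside the Gtf3c1 region in 7801 pairs (81.8%). With regions at a q of 1e-05 or lower the median distance was 57 bp.

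Away from the overlaps the lists differed in distance to each other. From an Rpc155 region alone, the nearest Gtf3c1 summit was a median of 1756 bp away (1576 to 2051), with 37.1% within 1 kb and 70.0% within 10 kb. From a Gtf3c1 region alone, the nearest of the fewer Rpc155 summits was 36528 bp away (35997 to 37219), with 4.10% within 1 kb.

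**Figure D1:**
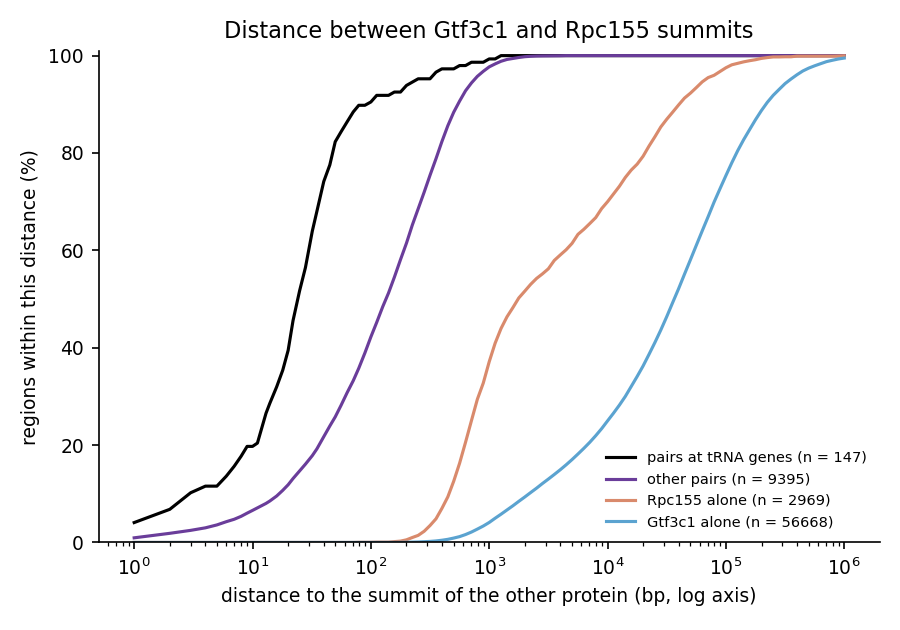
Cumulative share of regions (vertical axis, percent) by distance from their summit to the nearest summit of the other protein (horizontal axis, bp, log scale); overlapping pairs are split into the 147 at tRNA genes and the rest. Pairs at tRNA genes reach 82.3% by 50 bp, Rpc155 regions alone 37.1% and Gtf3c1 regions alone 4.10% by 1 kb.

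The annotation held 386 tRNA genes on these chromosomes. Both proteins were listed at the gene or within 200 bp of it for 219 (56.7%), Rpc155 alone for 46 (11.9%), Gtf3c1 alone for 4 (1.04%) and neither for 117 (30.3%). For protein-coding genes, counted within 5 kb of an end, both proteins met in 1 region at 24.0% and Rpc155 stood without any Gtf3c1 at 1.84%. Near-identical tRNA genes can share or lose reads in alignment, so an unlisted copy is not shown to be unoccupied, and neighbours in a cluster can share 1 region.

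At the 219 tRNA genes with both, the Rpc155 fold enrichment ran from 4.86 to 62.3 with a median of 47.5, and that of Gtf3c1 from 2.56 to 26.0 with a median of 9.85. At the 46 with Rpc155 alone, Rpc155 ran from 2.77 to 37.3 with a median of 8.57, so the ranges overlapped while the lower Rpc155 values fell mostly to genes without Gtf3c1. Under a fold enrichment of 10 there were 5 genes with both and 27 with Rpc155 alone, from 10 to 30 there were 28 and 15, and at 30 or more there were 186 and 4. At 5 of the 46, with Rpc155 from 4.86 to 37.3, the Rpc155 region did meet a Gtf3c1 region, but outside the gene and its flanks. At the other 41 it met none. From the middle of these 46 genes the nearest Gtf3c1 summit was 488 to 63516 bp away, with a median of 5280 bp. A Gtf3c1 region was listed there after KCl for 10 of the 46.

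The strongest tRNA gene with both was n-TEctc10, a glutamate tRNA gene (chr11:58302177-58302248), at 62.3 for Rpc155 and 16.8 for Gtf3c1. The strongest Rpc155 region alone lay on n-TRtcg1, an arginine tRNA gene (chr13:23526456-23526528), at 30.0, with the nearest Gtf3c1 summit 3891 bp from its own. The methionine gene n-TMcat2 on chromosome 13 followed at 26.8. The 4 tRNA genes with Gtf3c1 alone had it at only 2.84 to 3.04.

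The tRNA genes also differed by cluster and family. Chromosome 13, with 105 of the 386 tRNA genes, held 24 of the 46 genes with Rpc155 alone and 72 of the 219 with both. Of 57 cysteine tRNA genes 50 had neither protein, 5 had both and 2 Rpc155 alone. Chromosome 6, with 53 of the 386 tRNA genes, held 49 of the 117 with neither. These counts share genes, among them the cysteine genes n-TCgca37 and n-TCgca10. Arginine genes had both at 21 of 23 and glutamine genes at 6 of 15, with Rpc155 alone at another 6.

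H3K27ac moved with these classes. It was listed at 154 of the 219 tRNA genes with both (70.3%, interval 63.8 to 76.3), at 4 of the 46 with Rpc155 alone (8.70%, 2.42 to 20.8), at 0 of the 4 with Gtf3c1 alone and at 0 of the 117 with neither (interval up to 3.10%). H3K4me1 did not follow: 99 of 219 (45.2%) and 23 of 46 (50.0%), but 4 of the 117 with neither. Rpc155 strength moved with H3K27ac too. Among genes with both, the median Rpc155 fold enrichment was 50.9 with H3K27ac and 34.6 without, and that of Gtf3c1 was 11.6 and 6.63. Within the step of 10 to 30 for Rpc155, H3K27ac was listed at 8 of 28 genes with both and 2 of 15 with Rpc155 alone. On chromosome 13 it was listed at 27 of 72 and 2 of 24, and on all other chromosomes at 127 of 147 and 2 of 22. The part of Rpc155 strength or of the chromosome 13 cluster in the difference was not tested.

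**Figure D2:**
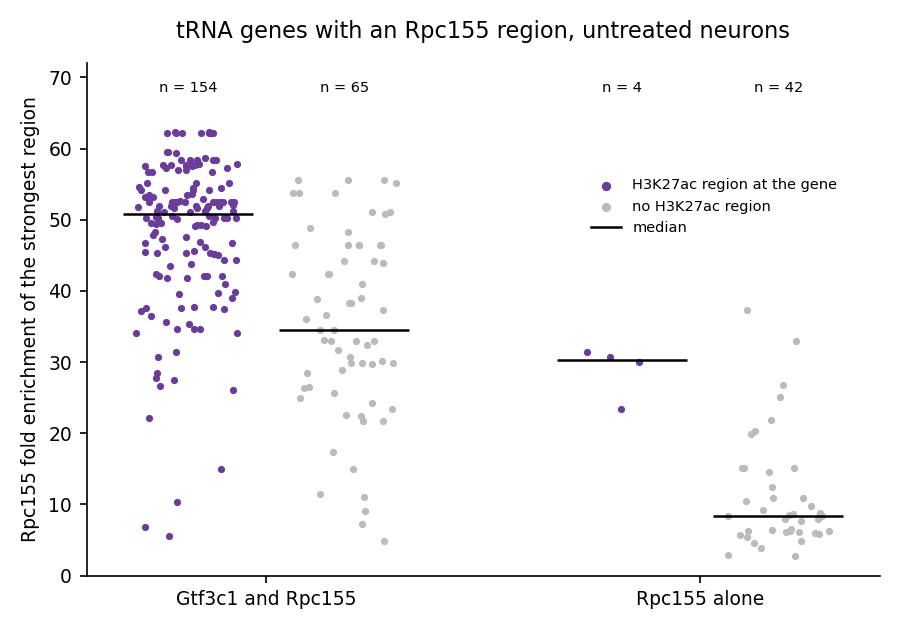
Rpc155 fold enrichment of the strongest region (vertical axis) at each of the 265 tRNA genes with Rpc155, split by whether Gtf3c1 and H3K27ac regions were listed there; points are genes and bars medians. Genes with all 3 sit highest, with a median of 50.9, and the 42 with Rpc155 but neither Gtf3c1 nor H3K27ac lowest, with a median of 8.43.

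Of the 10 other RNA polymerase III genes named here 8 had both proteins, with promoters inside the gene or upstream of it, while the 5S rRNA genes had neither. Among genes with promoter elements inside the gene, both were listed at Rn7s1 and Rn7s2, the genes of 7SL RNA of the signal recognition particle, with Rpc155 at 35.8 and 43.1 and Gtf3c1 at 7.88 and 10.4, and at Vaultrc5, a vault RNA gene, with 35.0 and 6.27. Among genes with upstream promoters, both were listed at Rn7sk (47.7 and 13.97), whose RNA holds the elongation factor P-TEFb inactive, at Rmrp (58.2 and 12.4) and Rpph1 (20.1 and 7.88), which encode the RNAs of RNase MRP and RNase P, and at the Y RNA genes Rny1 (52.0 and 11.1) and Rny3 (55.2 and 10.6). Gtf3c1 at these upstream-promoter genes was thus between 7.88 and 13.97, within its range of 2.56 to 26.0 at tRNA genes. The summits of the proteins were 1 bp apart at Rn7s2, 47 bp at Rn7sk, 52 bp at Rny3, 171 bp at Rmrp and 612 bp at Rny1. Bc1 had Rpc155 alone, with Rpc155 at 17.5 and the nearest untreated Gtf3c1 summit 1098 bp away, and a Gtf3c1 region there in the KCl list. Rnu6, the one U6 gene named so in the annotation, and all 50 5S rRNA genes had neither. Those 5S genes are repeated copies, to which the limit on near-identical copies applies.

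Rpc155 regions as strong as those at tRNA genes also stood away from the tRNA genes and the other RNA polymerase III genes named above. Only those genes were counted here as RNA polymerase III genes. Of 262 Rpc155 regions with a fold enrichment of 10 or more, 245 met Gtf3c1. Of the 262, 157 lay at tRNA genes, 9 at the other RNA polymerase III genes named above and 96 at neither. Of those 96, 94 met Gtf3c1. At 25 or more there were 18 regions at neither kind of gene, and 17 of them met Gtf3c1, with summits a median of 19 bp apart. Their Rpc155 fold enrichment was 26.8 to 61.0 and their Gtf3c1 fold enrichment 3.73 to 23.5. H3K27ac was listed at 15 of the 18 and H3K4me1 at 13, and all 18 had an Rpc155 region after KCl. This threshold was chosen after the values were seen.

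Of these 18 regions, 10 lay in a pair of stretches of chromosome 6 and the others on chromosomes 2, 7, 8, 9, 10 and 12. On chromosome 6, 6 lay among the natural killer receptor genes near Klrb1c, Klrb1b and BC035044, from 128759747 to 128843862. Another 4 lay on the same chromosome from 47650472 to 47779880. The one at 47650472-47651520 (33.4 and 6.80) was named by Rn4.5s, annotated as an rRNA gene, 4073 bp away. Rn4.5s was not in the fixed list of RNA polymerase III genes, and whether it belongs there was not examined. The others were named by the Y RNA gene Rny3, 3369 to 41733 bp away. The region near Fosb, an immediate-early gene (chr7:19300862-19301753), had 44.8 for Rpc155 and 6.80 for Gtf3c1 and lay 1408 bp from the nearer end of the gene. Others lay 282 bp from Med16, a Mediator subunit gene (45.3 and 5.73), and 3296 bp from Wdr5, a gene of a histone methyltransferase cofactor (57.4 and 11.3). These distances are to the named genes, and predicted models were left out of the naming. The regions near Fosb and Wdr5 were among those within 1 kb of a RefSeq start, so another annotated gene can lie closer. The one without Gtf3c1 lay 442 bp upstream of Ddx19a, an RNA helicase gene (chr8:110997838-110998612), at 26.8, with the nearest Gtf3c1 summit 515 bp away.

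The strengths of the 2 proteins in a pair differed between tRNA genes and other places. At the 147 tRNA pairs the median fold enrichment was 45.5 for Rpc155 and 9.31 for Gtf3c1. At the 9395 other pairs it was 3.57 for Rpc155 and 5.19 for Gtf3c1. Spearman's rho across pairs was 0.820 at tRNA genes and 0.343 elsewhere. The Rpc155 quartiles were 33.6 and 52.0 at tRNA genes and 3.23 and 4.07 elsewhere. The part of this narrow range in the lower rho was not tested. These are descriptions over sites that share the same pair of lists and a chromatin input as control. Gtf3c1 reached 25 or more in 72 of these pairs of nearest summits, of which 0 were at tRNA genes, and Rpc155 there ran from 3.23 to 24.6 with a median of 8.81. Over all overlapping pairs, with every partner kept, there were 74, of which 1 was at tRNA genes: an Rpc155 region of 50.2 on chromosome 11 that spans n-TRtct4, n-TLtag3 and n-TQctg6 and meets a Gtf3c1 region of 26.0. Among pairs of nearest summits Gtf3c1 reached 10 or more in 1425, 65 of them at tRNA genes, and Rpc155 in 245, 143 of them at tRNA genes.

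**Figure D3:**
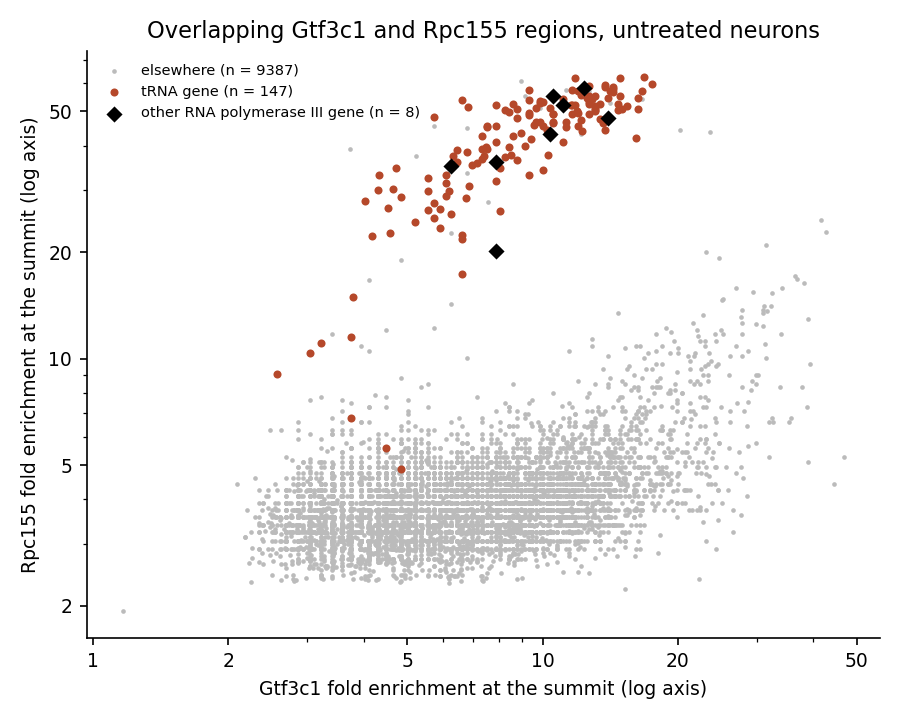
Rpc155 (vertical) against Gtf3c1 fold enrichment (horizontal, both log axes) for the 9542 Rpc155 regions and their nearest overlapping Gtf3c1 region; red circles are tRNA genes and black diamonds other RNA polymerase III genes. The tRNA pairs form an upper group with a median of 45.5 for Rpc155, while the 72 plotted pairs with a Gtf3c1 fold enrichment of 25 or more lie to the lower right, with Rpc155 between 3.23 and 24.6.

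The 10 regions of highest q rank, drawn from these same lists, give named examples of the contrast and are no separate evidence for it. Among regions of both ranked by Rpc155, 8 of 10 lay at tRNA genes. Ranked by Gtf3c1, 0 of 10 did. Those 10 included Itprip, whose product binds the inositol trisphosphate receptor, and Rnf44, a ring finger gene (Gtf3c1 44.4 and Rpc155 4.41). Srsf9, a splicing factor gene, lay 7865 bp away from its region (41.5 and 24.6). Nfix, a transcription factor gene of the nuclear factor I family, held its region 26857 bp from the gene's ends (38.9 and 12.9). Myt1l, a neuronal zinc finger gene, had its region 1086 bp from an end (36.9 and 16.8). Others were named only by distant genes, 53854 bp away for Rbm24 and 525478 bp away for Pappa. H3K27ac was listed at 7 and H3K4me1 at 9 of these 10.

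Of the 10 strongest regions of Gtf3c1 alone, 7 lay inside a named gene, most of them far from its ends. The first was in Ppp2r2b, a phosphatase regulatory subunit gene (36.5), 123618 bp from its ends and 54265 bp from the nearest Rpc155 summit. Pip5k1c, a lipid kinase gene of the synapse, had one 381 bp from an end of the gene and 253 bp after the nearest RefSeq start (35.3). Kcnip4, a potassium channel interacting protein gene (30.4), Nrxn3, a presynaptic adhesion gene (28.1), and Lsamp, a limbic adhesion gene (26.9), held theirs 119843, 341446 and 958299 bp from their ends. All 10 regions overlapped H3K4me1 and 2 of 10 H3K27ac, namely those at Pip5k1c and Slc35e2, the pair within 1 kb of a gene end. Of the 10 strongest regions of Rpc155 alone, 8 lay at tRNA genes and the others at Ddx19a and Bc1. All 40 of these top regions overlapped a KCl region of the same antibody.

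Gtf3c1 regions differed in place according to whether Rpc155 was there. The summit lay within 1 kb of an end of an annotated gene in 38.9% (38.0 to 39.9) of Gtf3c1 regions with Rpc155 and in 17.4% (17.1 to 17.8) of Gtf3c1 alone, which lay instead further inside genes in 61.1% against 37.3%. Rpc155 regions did not divide this way, with 39.1% (38.1 to 40.1) near an end with Gtf3c1 and 37.9% (36.1 to 39.7) alone. That last difference, 1.22 percentage points, turned to -17.8 with regions at a q of 1e-05 or lower, to -19.2 with equal numbers of regions and to -2.95 where regions had to share 50% of the shorter one.

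In each class more summits lay near a start than near the other end of a gene. Starts were those of all RefSeq promoter windows, which can lie inside a gene, and were counted before the other ends. A summit within 1 kb of a start, leaving tRNA genes aside, was found in 32.2% of Gtf3c1 regions with Rpc155, 11.9% of Gtf3c1 alone, 32.5% of Rpc155 regions with Gtf3c1 and 31.1% of Rpc155 alone. The other end of a gene had 1.76%, 3.11%, 1.72% and 1.82%. Where both proteins met near a start, their summits peaked at the start itself: 4.88% of the Gtf3c1 summits of that class lay in the 100 bp before it, and 4.39% of the Rpc155 summits in the 100 bp after it. Rpc155 alone did not peak there, with 1.89% in the 100 bp before the start, 2.63% in the bin centred 250 bp before it and 2.59% in the bin centred 150 bp after it. Regions alone are by rule those that miss Gtf3c1, and the part of this rule in the dip was not tested. In the 3145 pairs near a start, the Rpc155 summit was upstream of that of Gtf3c1 in 1703 and downstream in 1431, with a median offset of -20 bp.

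**Figure D4:**
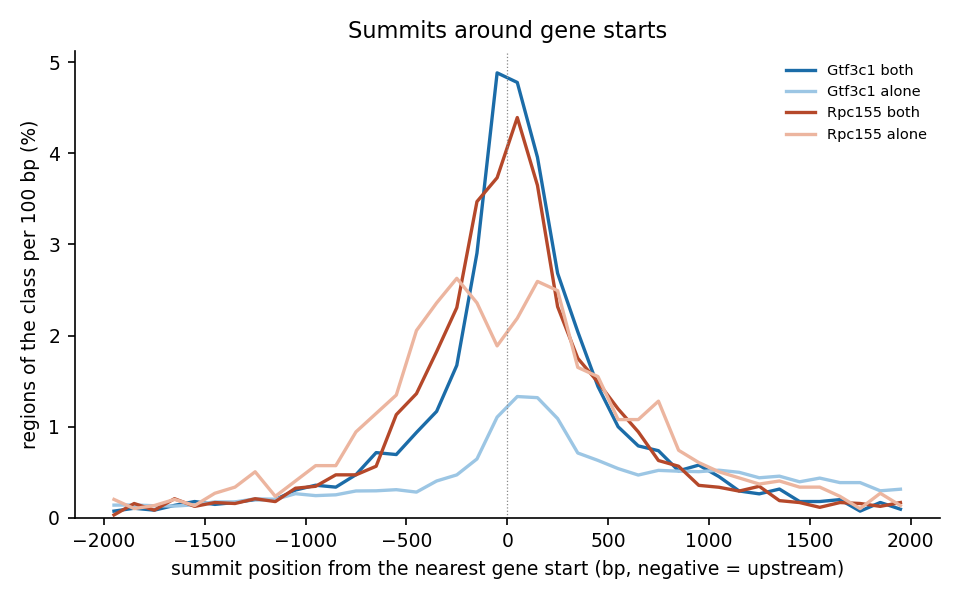
Share of each class (vertical axis, percent of its regions per 100 bp) with the summit at a given position from the nearest gene start (horizontal axis, bp, negative upstream). Regions of both peak at the start, at 4.88% for Gtf3c1 and 4.39% for Rpc155, and Rpc155 alone has 1.89% in the 100 bp before it.

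The promoter windows of the classes had like composition. Of 31396 RefSeq windows of 300 bases, 3682 met an overlapping pair, 4757 Gtf3c1 alone, 501 Rpc155 alone, 72 both in separate regions, and 22384 neither. The median GC content was 62.0%, 63.3%, 58.3% and 61.5% in the occupied classes against 49.7% in those with neither. The B box letters given above stood in 11 windows with both (0.299%, interval 0.149 to 0.534), 7 with Gtf3c1 alone (0.147%), 1 with Rpc155 alone (0.200%) and 21 with neither (0.0938%), against 0.127% of all windows. Of those 11, 5 held an annotated tRNA gene. An ETS factor motif, CCGGAAG, searched on both strands, was in 21.2% of windows with both, 19.1% with Gtf3c1 alone, 16.6% with Rpc155 alone and 4.64% with neither, against 9.00% of all windows. TATAAA ran the other way, at 5.49%, 6.45%, 6.59% and 16.7%, against 13.6% of all. At promoters the letters thus separated occupied from unoccupied windows more than they separated the classes.

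Histone marks separated Gtf3c1 with Rpc155 from Gtf3c1 without. H3K27ac overlapped 84.7% (84.0 to 85.4) of Gtf3c1 regions with Rpc155 and 43.0% (42.5 to 43.4) of Gtf3c1 alone, while H3K4me1 overlapped 85.4% and 73.3%. Neither mark was at 1.27% of the first and 21.0% of the second, and H3K4me1 without H3K27ac at 14.02% and 36.0%. The gap in H3K27ac was present at each strength and place. At a Gtf3c1 fold enrichment under 3 the shares were 87.6% with Rpc155 and 31.9% alone, and at 10 or more 68.9% and 34.8%. Near gene ends they were 94.2% and 68.8%, further inside genes 82.5% and 38.5%, and outside genes 72.6% and 34.7%. The 643 Gtf3c1 regions alone at 10 or more had H3K4me1 at 90.7% and H3K27ac at 34.8%. Regions of both were also wider, and how much of the gap their width carries was not tested; where overlaps of regions and marks had to cover 50% of the shorter, the gap was 35.6 percentage points, against 41.8.

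Rpc155 regions differed less and less steadily. H3K27ac overlapped 83.9% (83.2 to 84.6) with Gtf3c1 and 70.2% (68.5 to 71.8) alone, and H3K4me1 82.5% (81.8 to 83.3) and 85.1% (83.8 to 86.4). The H3K27ac difference of 13.7 percentage points became -4.41 with equal numbers of regions. The H3K4me1 difference of -2.61 became 10.4 at a q of 1e-05 or lower, required of the mark regions as well, and 7.73 with equal numbers. Among Rpc155 regions alone H3K27ac was at 63.5% under a fold enrichment of 3, 73.1% from 3 to 4, 73.0% from 4 to 6, 14.3% (5 of 35) from 6 to 10 and 23.5% (4 of 17) at 10 or more. With Gtf3c1 the shares in these steps were 80.9%, 86.1%, 81.7%, 73.1% and 78.4%. Of the regions alone, 2 of the 41 at tRNA genes and 2082 of the other 2928 (71.1%) overlapped H3K27ac. A mark present in few of the cells and a weaker mark in all of them cannot be told apart in such lists.

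**Figure D5:**
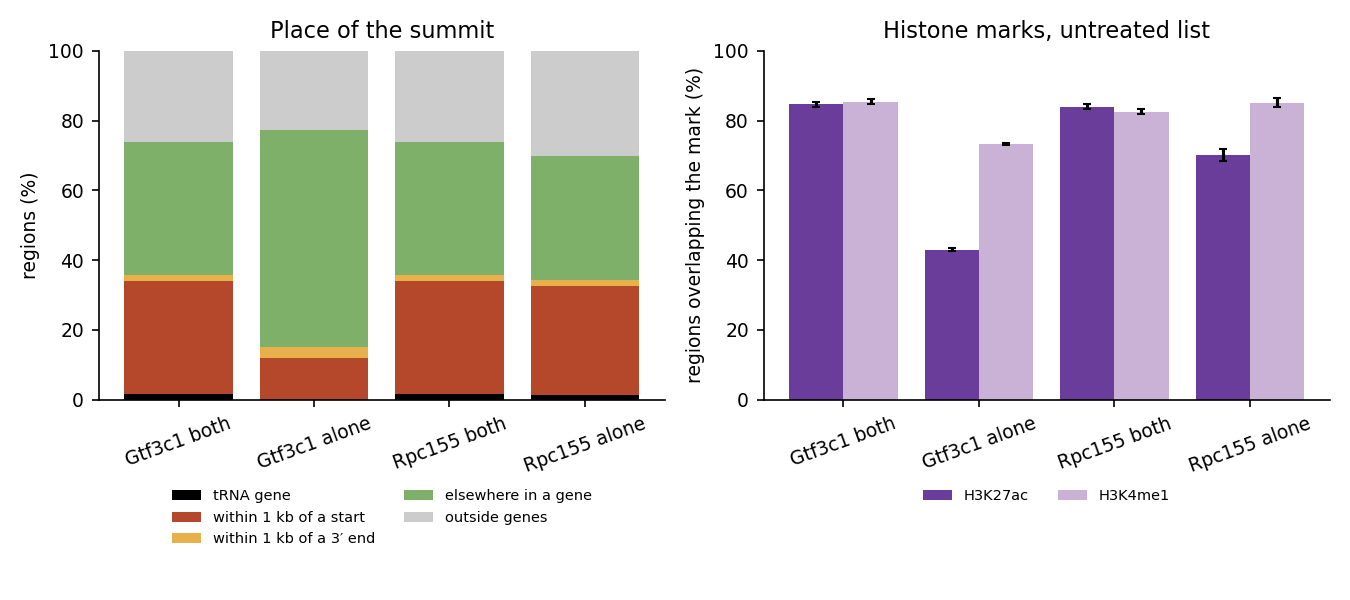
Left, share of regions in each class (vertical axis, percent) by place of the summit; right, share overlapping an untreated H3K27ac or H3K4me1 region, with 95% exact binomial intervals. Gtf3c1 alone stands apart from the other 3 classes, with 11.9% near starts and 43.0% with H3K27ac.

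Regions of both were also the ones more often listed after KCl. For Gtf3c1, 82.3% (81.5 to 83.0) of regions with Rpc155 overlapped a Gtf3c1 region of the KCl list, against 39.5% (39.1 to 39.9) of Gtf3c1 alone. For Rpc155, whose KCl list was shorter at 4251 regions in all, the shares were 20.8% (20.0 to 21.6) and 6.97% (6.08 to 7.95). Strength accompanied this as well, and a gap remained within each step of Gtf3c1 fold enrichment. With Rpc155 and alone, the shares were 59.8% and 24.0% under 3, and 68.7% and 35.0% from 3 to 4. They were 82.7% and 51.9% from 4 to 6, 89.6% and 68.8% from 6 to 10, and 97.4% and 92.7% at 10 or more. In the Rpc155 list the gap was not present at each strength. With Gtf3c1 and alone, the Rpc155 shares were 9.40% and 2.69% under 3, 13.1% and 5.86% from 3 to 4, and 29.8% and 11.7% from 4 to 6. From 6 to 10 they were 66.4% and 65.7% (23 of 35), and at 10 or more 99.6% and 94.1% (16 of 17). Of the 2969 Rpc155 regions alone, 919 (31.0%) had a Gtf3c1 region at the same place in the KCl list. Of the 56668 Gtf3c1 regions alone, 1149 (2.03%) had an Rpc155 region there. The KCl lists held 58090 Gtf3c1 and 4251 Rpc155 regions in all, and the part of this in these shares was not tested.

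At protein-coding genes, 4968 of 20665 (24.0%) had a region of both within 5 kb of an end, 897 (4.34%) had both proteins in separate regions, 6002 (29.0%) Gtf3c1 alone, 381 (1.84%) Rpc155 alone and 8417 (40.7%) neither. Of the genes with H3K27ac within 5 kb, 38.6% had both and 41.4% Gtf3c1 alone. With regions at a q of 1e-05 or lower, 1443 genes had both, and with equal numbers of regions 1833. The gene lists are read against the 24.0%, and lists whose members nearly all had H3K27ac also against the 38.6%.

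Genes that encode the polymerase and its factors were themselves occupied. A region of both lay at 20 of 28 such genes (71.4%), separate regions at 1 and Gtf3c1 alone at 7. All 28 had H3K27ac within 5 kb, and the share of both was 38.6% over all protein-coding genes with H3K27ac and 24.0% over all protein-coding genes. TFIIIC subunit genes had both at 5 of 6, and the gene of Gtf3c1 itself had Gtf3c1 alone (3.94). The group of TFIIIB, TFIIIA and Maf1 had both at 4 of 6, including Maf1, the repressor of RNA polymerase III (Gtf3c1 5.91 and Rpc155 4.92), and Brf1, the TFIIIB subunit used at tRNA genes (5.19 and 4.75), while Bdp1 and Gtf3a had Gtf3c1 alone. Polymerase subunit genes had both at 8 of 11, including Polr3a, which encodes Rpc155 (5.19 and 4.24), and Polr3e, whose 25.6 for Rpc155 came from the tRNA gene shown above. SNAPc genes had both at 3 of 5. Except at Polr3e these were weak regions, and the medians over the members with a region were 3.94 for Gtf3c1 and 3.91 for Rpc155, close to 4.30 and 3.57 over all protein-coding genes.

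Genes that use or meet these products gave mixed counts. Aminoacyl-tRNA synthetase genes, whose enzymes charge tRNAs, had both at 11 of 20 and Gtf3c1 alone at 8, with the highest values at Qars, the glutaminyl enzyme (24.9 and 7.30). Cohesin and CTCF genes had both at 2 of 6, Smc3 (16.1 and 3.74) and Ctcf (4.66 and 3.57), and Rad21 had Rpc155 alone. Condensin genes had both at 5 of 8. Housekeeping genes had both at 7 of 8, and cytosolic ribosomal protein genes, a list added after the values were seen, at 51 of 76.

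Neuronal genes gave small counts, and differences between these lists were not tested. Of 15 synaptic genes 8 had both and 7 Gtf3c1 alone. Gria1, an AMPA receptor subunit gene, had 21.8 for Gtf3c1 and 10.4 for Rpc155, while Syt1, Snap25 and Grin2b had Gtf3c1 alone at 5.73 to 6.63. Of 20 immediate-early genes, which neuronal activity induces, 8 had both, 2 separate regions and 10 Gtf3c1 alone, a share of both close to that of all genes with H3K27ac. Fos had Gtf3c1 alone at 14.7 and Npas4 both at 4.30 and 6.28, and Fosb owed its 44.8 for Rpc155 to the region described above. Glutamatergic markers had both at 6 of 8, with Neurod6, a cortical transcription factor gene, at 13.1 and 6.45. Pan-neuronal markers had both at 2 of 6 and Gtf3c1 alone at 4, and GABAergic markers had both at 1 of 6, while all 6 of either list had H3K27ac.

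Marker genes of other cell types had no region of both. Both were at 0 of 6 astrocyte, 0 of 5 oligodendrocyte, 0 of 6 microglial, 0 of 6 endothelial and 0 of 6 non-neural marker genes. Gtf3c1 alone was at 4 of the 6 astrocyte genes, 1 of the 5 oligodendrocyte genes and 1 of the 6 microglial genes. Rpc155 alone was at 3 of the 5 oligodendrocyte genes, Olig2, Mbp and Pdgfra, at 3.40 to 3.74, of which 1, Mbp, had H3K27ac. Among large families examined after the values were seen, both were at 6 of 1104 olfactory receptor genes, 2 of 354 vomeronasal receptor genes and 0 of 39 Hox genes. Of 57 clustered protocadherin genes, which give neurons their surface identity, 21 had both and 35 neither, with many starts lying close together. Regions within 5 kb of either end were counted, so genes with starts or other ends close together can share 1 region. The 21 genes need not be 21 separate places.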

How the data were processed

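Untreated Gtf3c1 and Rpc155 lists of primary cortical neurons were compared. Per the submitters' processing notes, Bowtie2 and MACS2 were used with the GRCm38/mm10 build, and their versions are not stated in the sources used here. The deposited lists give per region the authors' fold enrichment (a ratio), −log10 p and −log10 q, a score equal to 10 times the −log10 q, and a summit. All regions passed a q of 0.05. They were used to rank, bin or describe regions within a list, and the fold enrichments of overlapping regions were set side by side with no adjustment between libraries. The untreated H3K27ac and H3K4me1 lists and the KCl lists of Gtf3c1 and Rpc155 served for overlap; the input libraries were not analysed here.

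Overlap required 1 shared bp. Genes, tRNA genes and starts came from RefSeq tables of GRCm38, in which tRNA strands were not used. Tables were computed in Python 3.11.15 (numpy 2.4.6, pandas 2.3.3, scipy 1.17.1). Overlap and distance functions were tested on simulated data. Medians carry order-statistic 95% intervals.

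Named genes were members of the gene lists and the 10 regions of highest −log10 q per class, leaving out predicted models; the promoters printed were picked after the values were seen. Not every listed gene is reported here. The members and lists were chosen with earlier results of these data known. Alternatives were a q of 1e-05, an overlap of 50% of the shorter region, equal list lengths, added sex chromosomes, narrower gene windows and, added after seeing the data, gaps or flanks of 1000 bp. The q of 1e-05 was applied to every list used, including those of the histone marks and of KCl.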

Additional observations from a re-analysis of the deposited data

Results flagged for a closer look

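Overlap with H3K4me1 differed in direction between the lists. For Gtf3c1 the share was 12.1 percentage points higher in regions that also held Rpc155 than in Gtf3c1 alone, and for Rpc155 the same difference was -2.61 percentage points. The difference between the lists was not tested, since each antibody has 1 list. The Rpc155 difference turned to 10.4 at a q of 1e-05 or lower and to 7.73 with equal numbers of regions, where both lists had the same direction. That q was required of the H3K4me1 regions as well.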

How the results depend on the processing

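No paired analysis was possible because each antibody has 1 list with no replicate numbers. No depth comes with the lists, so a protein absent from a list is not shown to be absent from the place.

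With a q of 1e-05 or lower, the share in both lists was 82.0% of Rpc155 and 8.62% of Gtf3c1 regions, the median summit distance 57 bp and the Gtf3c1 width ratio 1.65. The differences of both minus alone, in percentage points, were 16.7 (Gtf3c1) and -17.8 (Rpc155) for gene ends, 26.997 and 4.61 for H3K27ac, 3.33 and 10.4 for H3K4me1, and 15.1 (Rpc155) for presence after KCl; 1443 protein-coding genes had both. Where overlaps had to cover 50% of the shorter region they were, in the same order, 67.3%, 12.5%, 112 bp and 1.96, then 19.3 and -2.95, 35.6 and 4.91, 5.50 and -4.27, and 45.5 (Gtf3c1) for KCl. With equal numbers of regions they were 40.1%, 38.6%, 88 bp and 1.57, then 13.3 and -19.2, 30.7 and -4.41, 4.69 and 7.73, and 25.1 and 16.8 for KCl; 1833 genes had both and 1102 Gtf3c1 alone. With 500 bp as the gene end window the differences were 19.5 and 4.71. Counting regions up to 1000 bp apart as shared, chosen after seeing the data, gave 87.5% and 20.4%, and H3K27ac differences of 43.5 and 26.6. Of 32 such differences under alternatives, 26 kept their sign and 6 reversed, all 6 in the Rpc155 list; the cause was not tested. The counts of tRNA genes with both and with Rpc155 alone stayed within 1.5 times under every alternative run.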
